A study of Drosophila melanogaster with 8 samples.

Results

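The genes described here are 8 Drosophila genes of oxidant defence: the transcription factor gene cnc, its inhibitor Keap1, the catalase gene Cat, the superoxide dismutase genes Sod1, Sod2 and Sod3, and Gclc and Gclm, which encode the subunits of the enzyme that starts glutathione synthesis. They were chosen by name, and all 8 were found among the 17473 genes of the deposited count table. RNA sequencing was run on 8 libraries whose label names fly intestinal stem cells as the source, 2 replicates in each of 4 groups. The groups carried mutant mitochondrial DNA (mtDNA) together with a FOXO knockdown, control mtDNA together with a FOXO knockdown, mutant mtDNA alone, and control mtDNA alone. The study's title asks how expression in these cells shifts when oxidative phosphorylation is disrupted and what part FOXO has in it. In all 4 groups the RNA had been recovered on anti-FLAG beads as RNA bound to pAbp, the poly(A)-binding protein. The mutation in the mtDNA, the driver of the tagged protein, the means of the FOXO knockdown, and the age and sex of the flies are not given in the sources used here. Nothing says whether replicates came from separate flies, so the p-values measure the spread between these libraries, which may be technical.

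In flies, cnc encodes the counterpart of mammalian Nrf2, which pairs with a small Maf protein at antioxidant response elements and raises the genes of glutathione synthesis, thioredoxin reduction and detoxification. Keap1 holds the protein back and hands it to a Cul3 ubiquitin ligase, and oxidants release it, so much of this switch works on the protein rather than on its mRNA. In the fly midgut, cnc and Keap1 are known for setting how readily intestinal stem cells divide, with oxidants pushing the cells into division. The dismutases turn superoxide into hydrogen peroxide, and catalase and the thioredoxin system remove the peroxide.

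The rRNA content of the libraries split the samples before any comparison. Genes named as ribosomal RNA (rRNA) took 31.0% of counts in mutant replicate 1 and 18.5% in control replicate 1, against 79.8% to 84.0% in the other 6 libraries. These are called the low-rRNA and the high-rRNA class below, and the class was a term of the statistical model. The libraries held 21133996 to 39327066 counts each, of which 4045799 to 32059520 lay outside rRNA genes. All 9 progenitor markers were detected in all 8 libraries, with summed levels of 258 to 323 CPM (counts relative to library size, with sizes scaled by TMM), while 7 enterocyte markers summed to 4474 to 12831 CPM. RNA of enterocytes was thus present beside that of progenitors, and in such bulk samples a smaller share of a cell type and less RNA per cell cannot be told apart.

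The mRNA of foxo itself, the labelled target, was measured first. It stood at 52.1 and 53.1 CPM in mutant plus FOXO knockdown, at 52.1 and 48.1 CPM in control plus FOXO knockdown, at 49.8 and 66.6 CPM in mutant, and at 43.3 and 61.9 CPM in control libraries. Among the high-rRNA libraries the 4 with knockdown, at 48.1 to 53.1 CPM, lay below the 2 without, at 61.9 and 66.6 CPM. The fitted fold was 0.776 with mutant mtDNA (edgeR adjusted p = 0.274) and 0.823 with control mtDNA (adjusted p = 0.517), so the lower foxo mRNA did not pass the threshold. The knockdown is therefore taken from the label.

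Levels were set relative to annotated exon length, joined over all transcripts of a gene, which can understate a gene with many transcripts. By this measure Sod1 was the most abundant of the 8 mRNAs in every library. Its level per kilobase of annotated exon had a median of 47.5 CPM per kb over the 8 libraries, with a range of 39.1 to 166 CPM per kb. Cat followed with a median of 35.4 CPM per kb and Gclc with 35.2 CPM per kb, and their ranges of 31.3 to 70.9 and 23.1 to 37.6 CPM per kb overlapped. Then came cnc at 22.0, Gclm at 20.0 and Sod2 at 9.45 CPM per kb. Their ranges were 17.1 to 30.3, 16.5 to 49.6 and 6.12 to 23.2 CPM per kb. This order changed with library class: in both low-rRNA libraries Gclm was above Gclc, and Sod2 was above cnc. Keap1 and Sod3 shared the lowest places, with medians of 4.20 and 4.28 CPM per kb, and one or the other was last in each library. The thinnest measurements were those of Sod3 and Sod2, with as few as 67 and 105 counts in a library, while cnc never had fewer than 3099 counts. No other gene had counts identical to those of a member, and only cnc shared exon sequence with other annotated genes, Irk1 and CG46310, over 1.37% of its exon length.

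**Figure D1:**
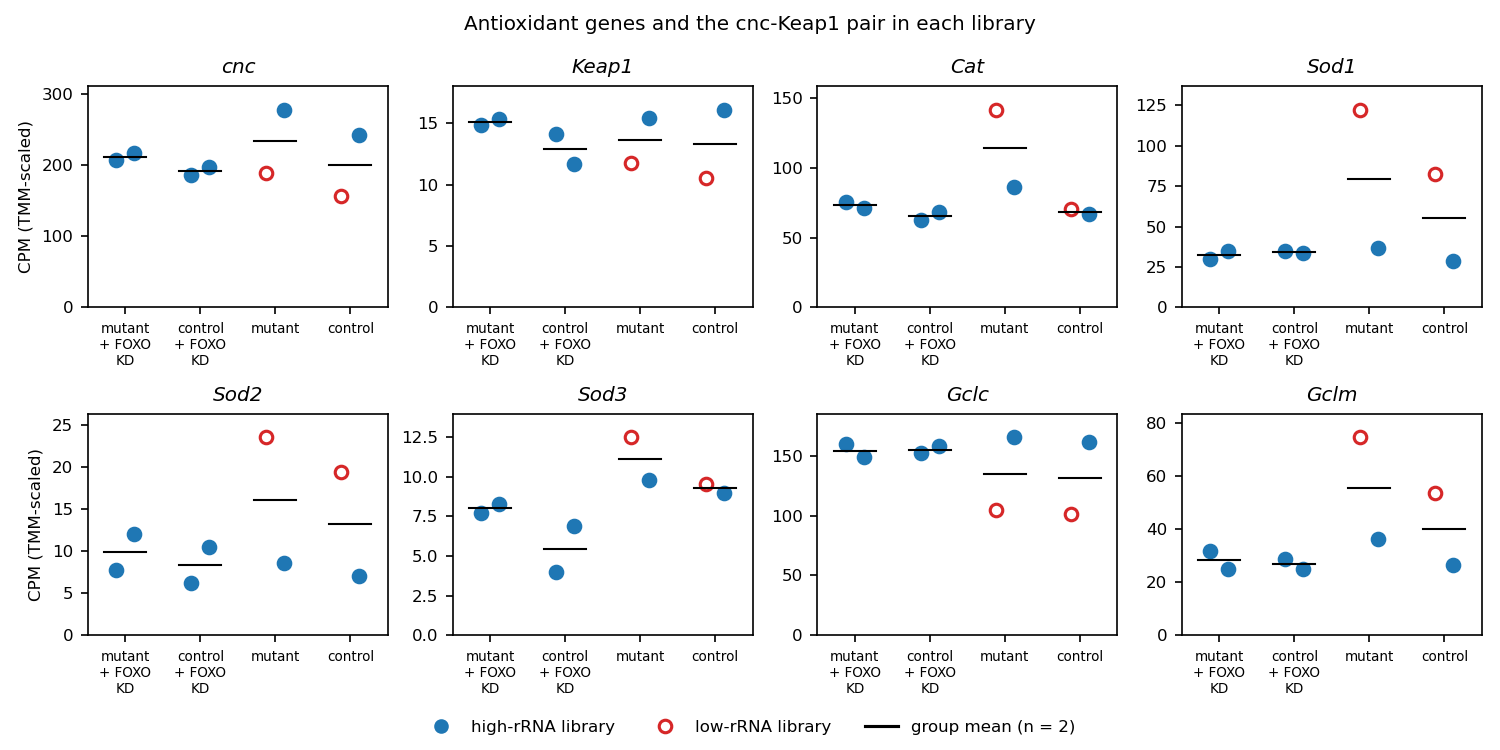
CPM on TMM-scaled library sizes (vertical axes, each from 0) of the 8 genes in each library, with the 4 groups along the horizontal axis. Filled blue points are high-rRNA libraries, open red points low-rRNA libraries and bars group means (n = 2). Cat was at 141 and 86.1 CPM in mutant libraries and at 70.1 and 67.2 CPM in control libraries, while the Sod1, Sod2 and Gclm points separate by library class.

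The switch genes come first. For cnc the levels were 207 and 217 CPM in mutant plus FOXO knockdown, 186 and 198 CPM in control plus FOXO knockdown, 189 and 278 CPM in mutant, and 157 and 243 CPM in control libraries. The low-rRNA library had the lower value in both groups without knockdown, and within each class the mutant library was above the control library, by 1.20 times in the low-rRNA pair and 1.14 times in the high-rRNA pair. The fitted mutant to control difference was 0.23 on the log2 scale (SE 0.105), with an edgeR adjusted p of 0.456. Keap1 gave 14.9 and 15.3 CPM in mutant plus FOXO knockdown, 14.1 and 11.7 CPM in control plus FOXO knockdown, 11.8 and 15.4 CPM in mutant, and 10.5 and 16.1 CPM in control libraries. Its mutant and control libraries overlapped, and the fitted log2 difference was 0.05 (SE 0.181, adjusted p = 0.999). Neither mRNA of the switch differed past the threshold between mutant and control mtDNA. The gene-level count of cnc pools all its transcripts, of which the annotation lists 16, so the long isoform that acts as the Nrf2 counterpart was not measured apart from the others.

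Cat, whose enzyme splits hydrogen peroxide into water and oxygen, was the member that rose with mutant mtDNA. Its levels were 75.5 and 71.1 CPM in mutant plus FOXO knockdown, 62.3 and 68.2 CPM in control plus FOXO knockdown, 141 and 86.1 CPM in mutant, and 70.1 and 67.2 CPM in control libraries. Both mutant libraries lay above the other 6, which ran from 62.3 to 75.5 CPM. The fitted fold of mutant over control was 1.62 (log2 difference 0.69, SE 0.147), with an edgeR adjusted p of 0.0336. Within the library classes the ratio was 2.02 in the low-rRNA pair and 1.28 in the high-rRNA pair, so mutant replicate 1 set much of the size. Leaving out mutant replicate 1, control replicate 1 or both leaves the same comparison in the fit with the class term, mutant replicate 2 against control replicate 2. These fits are thus no separate checks, and the call was lost in each. Without mutant replicate 1 the log2 difference was 0.37, without control replicate 1 it was 0.37, and in the 6 high-rRNA libraries alone it was 0.36. Without the class term it was 0.73 with an adjusted p of 1.00, and it stayed positive in 20 of 20 alternatives while passing the threshold in 13.

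Levels of cell type markers stood beside the rise of Cat as follows. The 7 enterocyte markers summed to 12831 and 5369 CPM in mutant libraries and to 9808 and 4474 CPM in control libraries, which are ratios of 1.31 in the low-rRNA pair and 1.20 in the high-rRNA pair. Digestive enzyme genes carried these sums. Of the 7, 6 had positive log2 differences and 1 passed the threshold, the trypsin gene betaTry, which rose by 0.58 (SE 0.133, edgeR adjusted p = 0.0482), while nub was at 105 and 68.9 CPM in mutant libraries and 111 and 92.6 CPM in control libraries (-0.25, adjusted p = 0.683). The 9 progenitor markers summed to 258 and 275 CPM in mutant libraries and to 318 and 309 CPM in control libraries. Their median log2 difference was -0.49, and 1 of the 9 was positive, the abundant hdc at 0.16 (adjusted p = 0.774). Only 2 passed the threshold, Dl at -0.99 and Sox100B at -0.90 (edgeR adjusted p = 0.0148 and 0.0341). The stem cell marker esg was at -0.30 (adjusted p = 0.577). Of 6 visceral muscle markers, up rose (log2 difference 0.72, adjusted p = 0.0121), with list sums of 923 and 1554 CPM in mutant libraries and 1120 and 726 CPM in control libraries. Of 7 enteroendocrine markers, NPF and IA-2 rose (2.05 and 0.47, adjusted p = 0.00541 and 0.0476). Their list had a median of -0.10, with pros at -0.81, AstC at -0.67 and AstA at -0.64 (adjusted p = 0.125, 0.0960 and 0.0748), and it summed to 207 and 201 CPM in mutant libraries against 173 and 190 CPM in control libraries. The part of these marker shifts in the Cat result was not tested. The 3 hemocyte markers summed to 1.09 and 1.57 CPM in mutant libraries and to 0.741 and 2.25 CPM in control libraries.

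The cytosolic dismutase gene Sod1 followed the library class more than the group. Its levels were 30.0 and 34.6 CPM in mutant plus FOXO knockdown, 35.2 and 34.0 CPM in control plus FOXO knockdown, 122 and 36.9 CPM in mutant, and 82.4 and 28.7 CPM in control libraries. The 2 low-rRNA libraries were far above the other 6, and in each class the mutant library was above the control library, by 1.48 times and 1.29 times. The fitted mutant to control log2 difference was 0.47 (SE 0.125), with an edgeR adjusted p of 0.0950. That value passed the threshold in 3 of 20 alternatives: with DESeq2 (adjusted p = 0.0214, where 4.12% of all genes tested were called), with no filter on low counts (0.0343), and without mutant replicate 2 (0.0445).

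Sod2 encodes the dismutase of the mitochondrial matrix, the compartment next to the respiratory chain. It gave 7.78 and 12.1 CPM in mutant plus FOXO knockdown, 6.21 and 10.5 CPM in control plus FOXO knockdown, 23.6 and 8.64 CPM in mutant, and 19.4 and 7.05 CPM in control libraries. Mutant exceeded control by 1.21 times in the low-rRNA pair and 1.23 times in the high-rRNA pair, against a fitted log2 difference of 0.29 (SE 0.265, adjusted p = 0.916). Sod3, the secreted dismutase, was at 7.74 and 8.28 CPM in mutant plus FOXO knockdown, 3.96 and 6.89 CPM in control plus FOXO knockdown, 12.5 and 9.78 CPM in mutant, and 9.56 and 9.00 CPM in control libraries. Its mutant and control libraries did not overlap, but the gap was small and the log2 difference of 0.26 (SE 0.259) had an adjusted p of 0.935.

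Glutathione is made from glutamate, cysteine and glycine, and the first and rate-limiting step belongs to a ligase with a catalytic subunit, Gclc, and a modifier subunit, Gclm. Gclc was at 159.5 and 149 CPM in mutant plus FOXO knockdown, 152 and 158 CPM in control plus FOXO knockdown, 105 and 165 CPM in mutant, and 102 and 162 CPM in control libraries. The mutant and control libraries matched within 1.03 times in each class, and the fitted log2 difference was 0.04 (SE 0.103, edgeR adjusted p = 0.999). Gclm stood at 31.6 and 24.8 CPM in mutant plus FOXO knockdown, 28.6 and 25.0 CPM in control plus FOXO knockdown, 74.6 and 36.5 CPM in mutant, and 53.6 and 26.6 CPM in control libraries. Mutant exceeded control by 1.39 times and 1.37 times within the classes, and the log2 difference of 0.47 (SE 0.145) had an adjusted p of 0.159.

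Taken as a group, 1 of the 8 genes was called for mutant against control mtDNA without knockdown, beside 2.08% of the 11561 genes tested, of which 167 were higher (1.44%) and 74 lower (0.640%). Mutant exceeded control in both library classes for 7 of the 8, the exception being Keap1 in the high-rRNA pair with a ratio of 0.957, against 29.5% of all genes tested. The CPM of the mutant libraries were both above those of both control libraries for 2 of the 8, Cat and Sod3, against 8.92% of all genes tested. The median fitted log2 difference of the 8 was 0.27, against 0.01 over all genes tested, and all 8 estimates were positive, although cnc, Keap1 and Gclc turned negative with total counts as library sizes. That scaling moved the median of all genes to -0.25 and the median of the 8 to 0.02. Without the class term edgeR called none of the 11561 genes (0.00%), and 233 had an unadjusted p under 0.05.

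**Figure D2:**
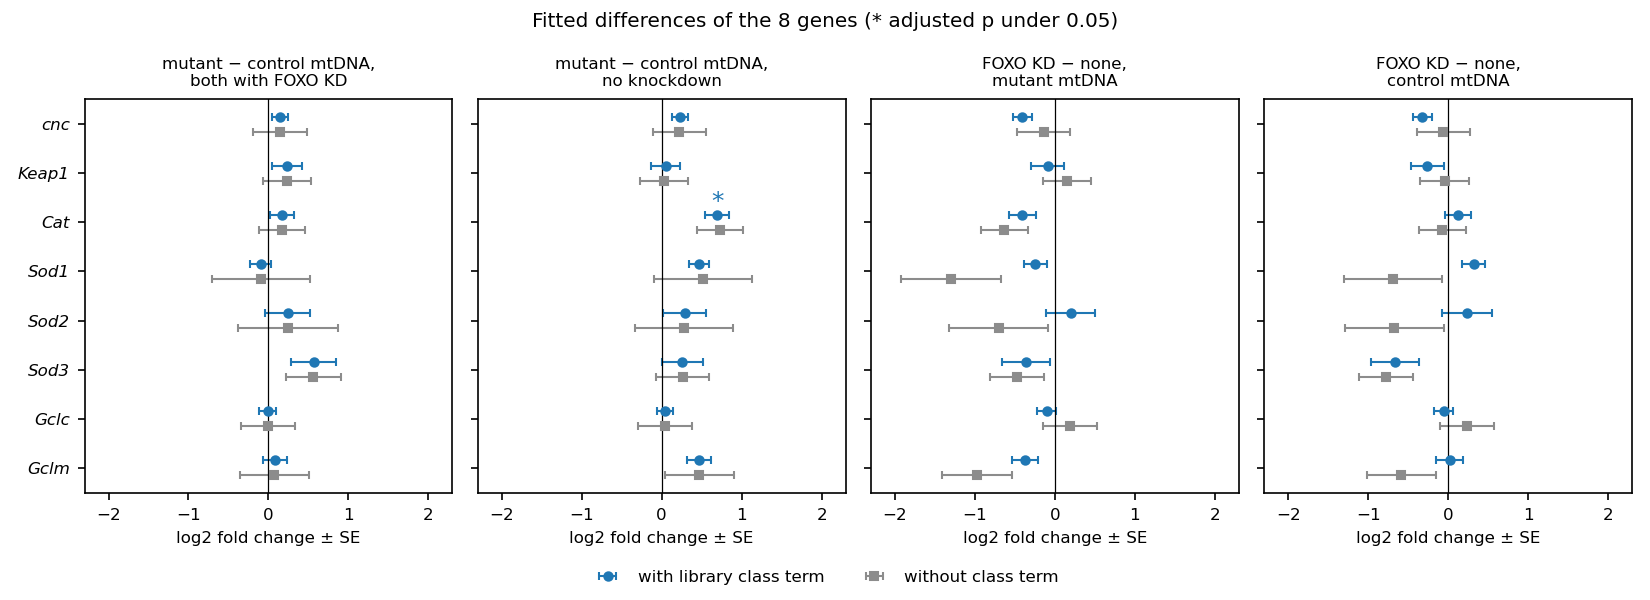
Fitted log2 fold change ± SE (horizontal axes) of the 8 genes in 4 comparisons, with the library class term (blue circles) and without it (grey squares); a star marks an adjusted p under 0.05. Only Cat for mutant minus control mtDNA without knockdown has a star, at 0.69, and its estimate without the class term was 0.73 with a wider error of 0.293.

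With FOXO knockdown in both groups, none of the 8 genes was called between mutant and control mtDNA, where 0.164% of all genes tested were called and 997 had an unadjusted p under 0.05. None of the 8 had an unadjusted p under 0.05 in edgeR, and DESeq2, which called 1.35% of all genes tested, called none of them. Both mutant libraries were above both control libraries for 4 of the 8, cnc, Keap1, Cat and Sod3, against 23.3% of all genes tested. The log2 differences were 0.14 for cnc (SE 0.105, adjusted p = 0.709), 0.23 for Keap1 (SE 0.189, 0.747) and 0.17 for Cat (SE 0.149, 0.769). Sod3 had the widest gap with 0.56 (SE 0.279, adjusted p = 0.599), and it rested on 1 library: without control plus FOXO knockdown replicate 1 the value was 0.22 (adjusted p = 0.896), and without replicate 2 of that group it was 1.03 (adjusted p = 0.0437). The values for Gclm and Gclc were 0.08 and -0.01, and those for Sod1 and Sod2 were -0.10 and 0.24. The progenitor marker sum was also lower with mutant mtDNA under knockdown. It was 264 and 275 CPM in mutant plus FOXO knockdown against 323 and 313 CPM in control plus FOXO knockdown. Of these 9 markers 3 were positive, esg at 0.14, klu at 0.05 and N at 0.0022, and none of the 9 was called by edgeR. The abundant hdc was at -0.23 here and at 0.16 without knockdown, and esg, klu and N were negative without knockdown, so the 2 lower sums share only part of their genes. Dl, Sox100B, zfh2, Egfr and Sox21a were negative in both. Dl, Sox100B and zfh2 were at -0.68, -0.63 and -0.39 here and at -0.99, -0.90 and -0.46 without knockdown. The enterocyte sum was 4592 and 4714 CPM in mutant plus FOXO knockdown against 5160 and 5458 CPM in control plus FOXO knockdown, with the abundant protease genes Jon65Aiv (-0.29), Jon65Aiii (-0.24) and alphaTry (-0.18) negative. The other 4 of the 7 enterocyte markers were positive, among them Amy-p at 0.33 and betaTry at 0.32, and none of the 7 was called by edgeR, although 3 had an unadjusted p under 0.05. The part of these shifts was not tested.

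Whether the response to mutant mtDNA differed with FOXO knockdown was tested as the interaction, the log2 difference under knockdown minus that without it. None of the 8 genes was called by edgeR or DESeq2, beside 0.510% of all genes tested with edgeR and 2.43% with DESeq2. In edgeR 2 of the 8 had an unadjusted p under 0.05, as did 1066 of the 11561 genes tested. Cat had -0.52 (SE 0.209, edgeR adjusted p = 0.459) and Sod1 had -0.57 (SE 0.180, adjusted p = 0.266), so the Cat rise without knockdown was not shown to differ from the change under it. Gclm had -0.39 (SE 0.209, adjusted p = 0.638), and the other 5 lay between -0.09 and 0.30 with adjusted p of at least 0.889. The Cat interaction turned on which library class gave the mutant to control ratio without knockdown. Leaving out control replicate 2 or mutant replicate 2 leaves the low-rRNA pair in the fit with the class term, with a ratio of 2.02. The interaction was then -0.81 and -0.83, and these fits are no separate checks. The 6 high-rRNA libraries leave the high-rRNA pair, with a ratio of 1.28. There the interaction was -0.20 and was not called, where 1.59% of all genes tested were called. Each pair is 1 library against 1.

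FOXO knockdown against none was compared in each mtDNA background, with all 4 knockdown libraries in the high-rRNA class. The comparisons of knockdown with none and of mutant with control share the libraries without knockdown, so a gene's values in them are not independent. With mutant mtDNA edgeR called none of the 8, beside 1.90% of all genes tested. An unadjusted p under 0.05 was found for 3 of the 8, beside 1164 of the 11561 genes tested. The estimate nearest the threshold was that of cnc, at -0.41 (SE 0.117, edgeR adjusted p = 0.142). In 6 of 20 alternatives cnc passed the threshold, always with a negative value, among them DESeq2 (-0.41, adjusted p = 0.00314) and the 6 high-rRNA libraries alone (-0.39, adjusted p = 0.0246), beside 3.63% and 3.30% of all genes tested. Leaving out mutant plus FOXO knockdown replicate 1 gave -0.38 with an adjusted p of 0.920. Cat had -0.41 (SE 0.167, adjusted p = 0.401) and Gclm -0.37 (SE 0.164, adjusted p = 0.465). Without mutant replicate 2, where the low-rRNA library stood alone for its group, Cat passed the threshold at -0.88 (adjusted p = 0.00724). The median of the 8 was -0.30, against 0.01 over all genes tested, and 7 of the 8 estimates were negative, the exception being Sod2 with 0.20. Gclc and Keap1 turned positive without the class term, at 0.19 and 0.15.

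With control mtDNA none of the 8 was called for FOXO knockdown against none by edgeR or DESeq2. The shares of all genes tested were 0.571% with edgeR and 1.73% with DESeq2. In edgeR 2 of the 8 had an unadjusted p under 0.05, beside 1126 of the 11561 genes tested. Again cnc was the lowest in p, at -0.32 (SE 0.117, edgeR adjusted p = 0.390). Sod3 had -0.66 (SE 0.304, adjusted p = 0.513), Sod1 0.32 (SE 0.144, adjusted p = 0.504), and the other 5 lay between -0.26 and 0.24. For Sod3 a single library again decided the value, which was -1.13 without control plus FOXO knockdown replicate 2 (adjusted p = 0.0382) and -0.32 without replicate 1 of that group (adjusted p = 0.774). The median of the 8 was -0.02, against -0.03 over all genes tested.

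Restricting the look to the high-rRNA class removes the split between the 2 classes, but not differences of rRNA share inside the class. That share was 80.9% to 84.0% in the 4 knockdown libraries and 79.8% and 79.9% in the 2 without knockdown. Knockdown and rRNA share therefore cannot be told apart in this class. There the 4 knockdown libraries of cnc, at 186 to 217 CPM, lay below the 2 libraries without knockdown, at 243 and 278 CPM. The same order held for Gclc (149 to 159.5 against 162 and 165 CPM), Keap1 (11.7 to 15.3 against 15.4 and 16.1 CPM) and Sod3 (3.96 to 8.28 against 9.00 and 9.78 CPM). This made 4 of 8 genes lower without overlap, against 8.90% of all genes tested, and none of the 8 higher, against 7.66%. Cat, Sod1, Sod2 and Gclm overlapped between knockdown and no knockdown. Each of these rests on 1 control and 1 mutant library without knockdown.

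The library class moved more of these genes than any of the 5 comparisons did. The low-rRNA to high-rRNA fold from the fit was 3.09 for Sod1 (adjusted p = 1.79e-06), 2.74 for Sod2 (adjusted p = 0.00139) and 2.03 for Gclm (adjusted p = 0.000203). It was 0.631 for Gclc (adjusted p = 0.000392) and 0.663 for cnc (adjusted p = 0.000997), so 5 of the 8 were called, beside 30.3% of all genes tested. Keap1 at 0.708 (adjusted p = 0.0576), Cat at 1.31 (adjusted p = 0.0654) and Sod3 at 1.17 (adjusted p = 0.584) did not pass. The direction went with annotated exon length: Sod1, Sod2 and Gclm, with 735, 1015 and 1505 bases, were higher in the low-rRNA libraries, and Keap1, Gclc and cnc, with 3447, 4402 and 9178 bases, were lower there. Over the 11466 genes with a length, Spearman's rho between the class difference and exon length was -0.20, a description across genes, which share the same libraries and are no independent replicates. The median class difference was 0.34 on the log2 scale among genes of 31 to 1167 bases and -0.24 among those of 3343 to 71820 bases. For mutant against control mtDNA the same rho was -0.08.

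**Figure D3:**
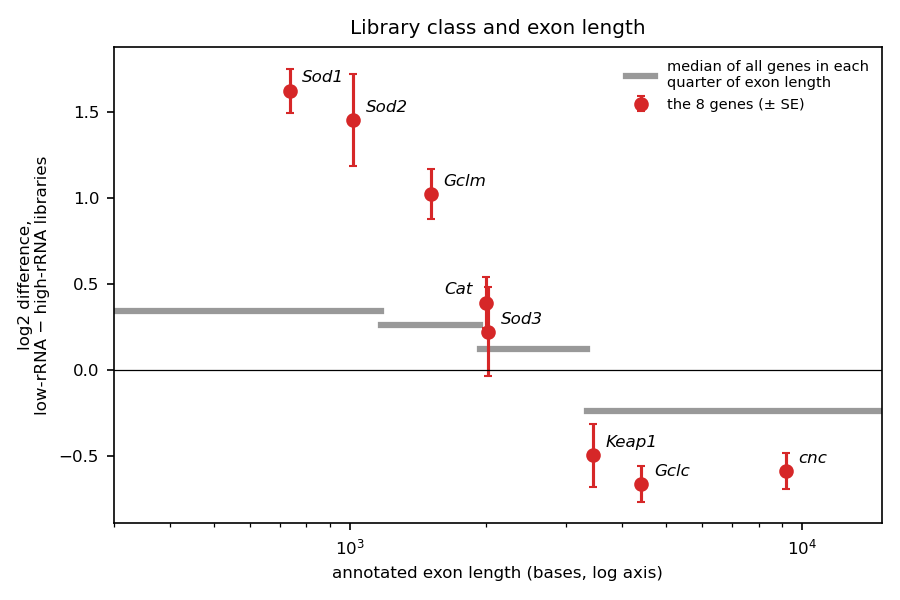
Log2 difference of low-rRNA minus high-rRNA libraries (vertical axis) against annotated exon length in bases (horizontal log axis), for the 8 genes (red, ± SE) with the median of all genes tested in each of 4 length classes (grey bars). The 3 shortest, Sod1, Sod2 and Gclm, lie at 1.63, 1.45 and 1.02, and the 3 longest at -0.50, -0.67 and -0.59.

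Ratios of counts inside a library do not depend on how libraries are scaled. The ratio of Gclc to Gclm counts was 5.05 and 5.995 in mutant plus FOXO knockdown, 5.32 and 6.34 in control plus FOXO knockdown, 1.40 and 4.54 in mutant, and 1.90 and 6.08 in control libraries. Within each class the mutant library had the lower ratio, 1.40 against 1.90 and 4.54 against 6.08, and its 4.54 was the lowest of the 6 high-rRNA libraries. Keap1 to cnc stayed between 0.0554 and 0.0757 in all 8 libraries, with the lowest value in mutant replicate 2. Sod2 to Sod1 was 0.259 and 0.349 in mutant plus FOXO knockdown, 0.176 and 0.310 in control plus FOXO knockdown, 0.193 and 0.234 in mutant, and 0.236 and 0.245 in control libraries. Between mutant and control the gap was very small, 0.2341 in mutant replicate 2 against 0.2357 in control replicate 1. The first of these rests on 243 Sod2 counts. With 2 libraries against 2 an exact permutation test cannot go below p = 0.333, so these ratios were not tested.

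**Figure D4:**
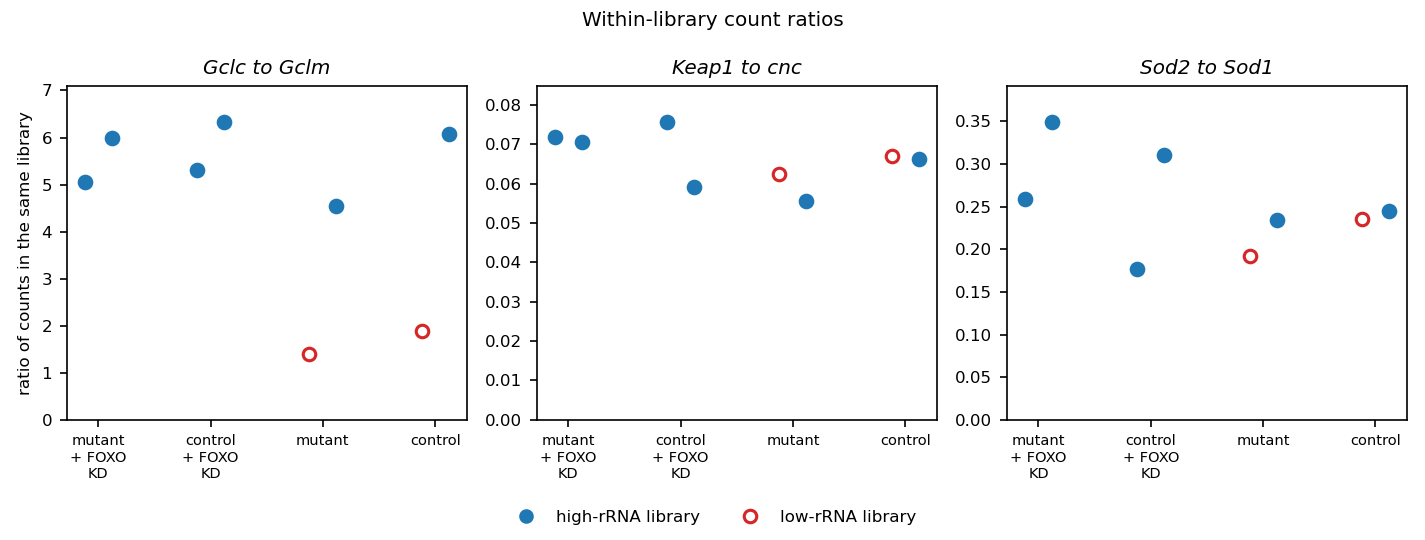
Ratio of the counts of 2 genes in the same library (vertical axes, from 0) for Gclc to Gclm, Keap1 to cnc and Sod2 to Sod1, by group. Filled blue points are high-rRNA and open red points low-rRNA libraries; Gclc to Gclm was 1.40 and 1.90 in the low-rRNA libraries and 4.54 to 6.34 in the others.

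Around the 8 genes, 6 lists of 46 further genes of the pathway were followed, of which 45 were tested. For mutant against control mtDNA 2 of them were called, both higher, beside the 2.08% of all genes tested. The first was Trxr1, the thioredoxin reductase that in flies also regenerates glutathione. It had 35.0 and 36.2 CPM in mutant plus FOXO knockdown, 32.1 and 33.2 CPM in control plus FOXO knockdown, 169.9 and 49.9 CPM in mutant, and 103.5 and 34.1 CPM in control libraries. Both mutant libraries were above the control library of their class, by 1.64 times and 1.46 times, with a fitted fold of 1.55 (log2 difference 0.63, SE 0.113, edgeR adjusted p = 0.0138). The call held in 13 of 20 alternatives, and was lost in the 6 high-rRNA libraries (adjusted p = 0.152), in only the libraries compared (0.137), on total counts (0.447), without the class term and with a replicate block in its place (both 1.00), without control replicate 1 (0.0742) and without mutant replicate 1 (0.0863). A stretch of 435 exon bases on the opposite strand belongs to sni, whose reads cannot be told apart if strand was not used.

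The other was Eip71CD, a methionine sulfoxide reductase that repairs oxidised methionine in proteins. It had 85.0 and 77.1 CPM in mutant plus FOXO knockdown, 100.3 and 113 CPM in control plus FOXO knockdown, 49.5 and 100.4 CPM in mutant, and 29.6 and 73.9 CPM in control libraries. Without knockdown the mutant library was above the control library of its class, by 1.68 times and 1.36 times, and the fitted fold was 1.51 (log2 difference 0.59, SE 0.124, adjusted p = 0.0297). That call held in 13 of 20 alternatives. It was lost in the 6 high-rRNA libraries (0.44, adjusted p = 0.151), in only the libraries compared (0.61, adjusted p = 0.168), on total counts (0.35, adjusted p = 0.545), without the class term (0.54, adjusted p = 1.00) and with a replicate block in its place (0.56, adjusted p = 1.00), without control replicate 1 (0.46, adjusted p = 0.144) and without mutant replicate 1 (0.46, adjusted p = 0.125). Under knockdown the log2 difference of mutant against control mtDNA was -0.40 (SE 0.125, edgeR adjusted p = 0.388). The interaction was -0.99 (SE 0.176, edgeR adjusted p = 0.0371), the single call among the 45 genes, beside 0.510% of all genes tested. It kept its sign in the 6 high-rRNA libraries at -0.85 (adjusted p = 0.00896), and 15 of 19 alternatives called it. It was not called without the class term (-0.93, adjusted p = 1.00), with a replicate block in its place (-0.93, adjusted p = 1.00), on total counts (-0.87, adjusted p = 0.457) or without mutant plus FOXO knockdown replicate 2 (-0.91, adjusted p = 0.109).

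List by list, the partners of the switch, maf-S, Cul3, Roc1a and ref(2)P, had a median log2 difference of -0.01 for mutant against control mtDNA, and none of the 4 was called by edgeR or DESeq2 or had an unadjusted p under 0.05. The 12 detoxification genes regarded as cnc targets, glutathione transferases and cytochrome P450 genes among them, had a median of 0.09, with 7 positive. None was called by edgeR, nor by DESeq2, which gave only 8 of the 12 an adjusted p. In edgeR 4 of the 12 had an unadjusted p under 0.05, beside 1262 of the 11561 genes tested. Those 4 were the P450 gene Cyp12d1-p at 2.02 (adjusted p = 0.363) and the transferase genes GstE3 at 0.69 (adjusted p = 0.181), GstE7 at 0.66 (adjusted p = 0.274) and GstD5 at -1.06 (adjusted p = 0.323). GstD1 had 0.01 and Cyp6a2 -0.46. Of 13 genes of peroxide removal, 12 were tested with a median of 0.13, and Trxr1 was the one called. Trxr2 had at most 0.232 CPM in any library and was not tested. The 9 genes of glutathione and NADPH supply had a median of 0.37, and none was called by edgeR. All 9 estimates were positive, but Zw was at 0.00089 and turned negative in 10 of 20 alternatives, with -0.49 in the 6 high-rRNA libraries and -0.26 on total counts, and GstS1 turned negative in 4 and Mgstl in 1 of the 20, with lowest values of -0.10 and -0.05. Idh at 0.52 (adjusted p = 0.0597) and Men at 0.57 (adjusted p = 0.0788), which make NADPH, were the 2 with an unadjusted p under 0.05, and DESeq2 called both. Idh, Men, Zw, GstS1, Mgstl, the transferase genes and both P450 genes are named for values seen, not by the rule. Gss1 and Gss2 in that list encode closely similar glutathione synthetases between which reads may be split. Of the 5 genes of dismutase copper loading and protein repair, Eip71CD was called. Of the 3 oxidant sources, Duox, Nox and mol, none was called by edgeR or had an unadjusted p under 0.05 in it. DESeq2 called none either, but gave an adjusted p to only 1 of the 3. The median over the 45 genes was 0.22, against 0.01 over all genes tested. In the other 3 comparisons edgeR called none of the 45. For mutant against control mtDNA under FOXO knockdown 10 of the 45 had an unadjusted p under 0.05, beside 997 of the 11561 genes tested. DESeq2 called 0 there, but gave an adjusted p to only 8 of the 12 detoxification genes and 1 of the 3 oxidant sources. For the knockdown against none, 6 of the 45 had an unadjusted p under 0.05 with mutant mtDNA and 3 with control mtDNA. The counts over all genes tested were 1164 and 1126. DESeq2 called 2 (Trxr1 and Idh) with mutant mtDNA and 1 (Eip71CD) with control mtDNA.

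**Figure D5:**
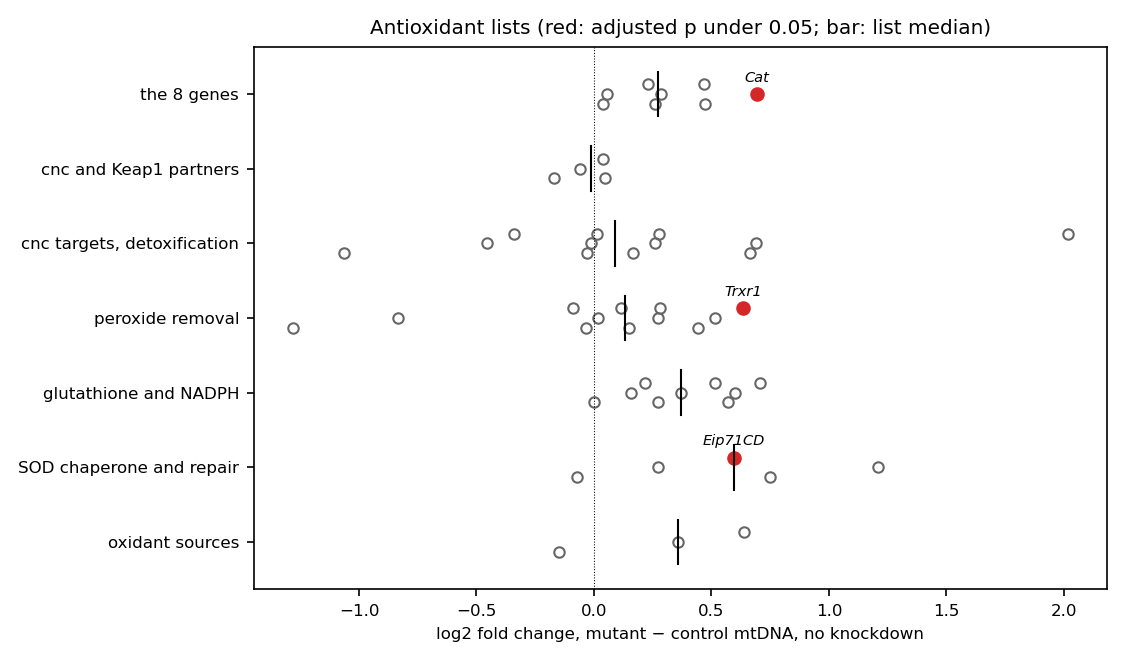
Log2 fold change of mutant minus control mtDNA without knockdown (horizontal axis) for the 8 genes and the 6 lists (rows), each point a gene tested and each bar the list median. Red points passed an adjusted p under 0.05: Cat, Trxr1 and Eip71CD, at 0.69, 0.63 and 0.59.

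Among the 2971 other genes with a mean log2 CPM of at least 4, the pattern most like that of Cat over the 8 libraries was that of Ance, which encodes an angiotensin-converting enzyme, with a mean absolute difference of 0.0709 between the centred log2 CPM. It had 162 and 155 CPM in mutant plus FOXO knockdown, 149 and 147 CPM in control plus FOXO knockdown, 277 and 184 CPM in mutant, and 170 and 143 CPM in control libraries. Next was the cytochrome P450 gene Cyp6g1, with a mean absolute difference of 0.0819, at 44.8 and 26.4 CPM in mutant libraries and 21.8 and 20.3 CPM in control libraries. Both were chosen for their likeness to Cat over these libraries, so their higher levels in mutant libraries are a description.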

How the data were processed

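The authors deposited raw counts of reads in 1 table, with a gene identifier and a name in each row and no normalization. FastQC, cutadapt, HISAT2, featureCounts and limma are named per the submitters' processing notes, with no version or setting. The genome build, the annotation and the use of strand are not given in the sources used here, so no coordinates are printed, and 17331 of 17473 identifiers matched the annotation used for exon lengths and overlaps. Libraries were assigned to groups and columns from the labels.

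The unchanged counts were tested in R 4.3.3 by edgeR 4.0.16: genes kept by filterByExpr (11561), TMM scaling, and quasi-likelihood F-tests, two-sided, in a fit of all 8 libraries with 4 group means and a library class term (rRNA genes above or below 50% of counts), which leaves 3 residual degrees of freedom. Adjustment was Benjamini-Hochberg over all genes tested, with a threshold of 0.05. The 8 genes, the lists, the class term and the rule for naming genes were chosen with earlier results of these data known. The rule names the 8 genes, foxo, up to 3 list genes per direction past the threshold, and the 2 genes most like a member that passed. The default quasi-likelihood method of this edgeR version is the main one. The newer method was run first, and the 2 changed places after it had called too many unchanged genes when tested on simulated data and after its results on the real counts had been seen. CPM are on TMM-scaled library sizes, with factors of 0.629 to 3.19. The common coefficient of variation was 0.250 with the class term and 0.472 without it. Alternatives, given in the closing section, were DESeq2 1.42.0, its size factors in edgeR, total counts, no rRNA genes, 2 other filters, no class term, the 6 high-rRNA libraries, a replicate block, only the libraries compared, a threshold of 0.01 and leaving out each library. A count of 0 allows up to 3, or 0.0763 to 0.142 CPM relative to total counts, and covers counting error only. The search for motifs in promoters was not run. Plots used matplotlib 3.10.9 and tables pandas 2.3.3, under Python 3.11.15.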

Additional observations from a re-analysis of the deposited data

Results flagged for a closer look

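Eip71CD, a methionine sulfoxide reductase gene, responded to mutant mtDNA differently with and without FOXO knockdown by the test of the difference itself. The interaction was -0.99 on the log2 scale (SE 0.176, edgeR adjusted p = 0.0371). Under knockdown the mutant libraries had 85.0 and 77.1 CPM and the control libraries 100.3 and 113 CPM, and without knockdown the mutant libraries had 49.5 and 100.4 CPM and the control libraries 29.6 and 73.9 CPM. The call was lost without the class term and with a replicate block in its place (adjusted p = 1.00 in both), on total counts (-0.87, adjusted p = 0.457) and without mutant plus FOXO knockdown replicate 2 (-0.91, adjusted p = 0.109), and the other 15 of 19 alternatives kept it.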

How the results depend on the processing

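Of 792 alternative values for the 40 log2 fold changes of the 8 genes (5 comparisons), 716 kept their direction and side of the threshold, 7 lost the call, 14 gained one and 55 changed sign. The cause of the moves below was not tested, unless the alternative has fewer libraries or a stricter threshold. Sod2, Sod3 and Keap1 had fewer than 200 counts in some libraries, so counting error was widest for these. Replicates differed beyond counting error in all 4 groups, by the squared deviation of a gene scaled by its counting variance. Its median was 1.95 in mutant plus FOXO knockdown, 5.03 in control plus FOXO knockdown, 118 in mutant and 158 in control, against 0.455 from sampling alone. In mutant and control the replicates belong to different library classes, so these values include the class difference, for which the model has a term.

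For mutant against control mtDNA, 1 of the 8 genes was called with edgeR and the class term. The count was 2 with DESeq2 and with no filter on low counts. It was 0 in the 6 high-rRNA libraries, without the class term, in only the libraries compared, on total counts and at a threshold of 0.01. All genes called numbered 241 with the model of the report, 476 with DESeq2, 441 with the newer quasi-likelihood method, 546 with no filter, 64 in only the libraries compared, 94 on total counts, 90 at a threshold of 0.01 and 0 without the class term. The 2 list genes became 4 with DESeq2 and with no filter, 5 with the newer method, and 0 in the 6 high-rRNA libraries, without the class term, in only the libraries compared and on total counts. On total counts cnc turned to -0.017, Keap1 to -0.20 and Gclc to -0.21, and Keap1 was -0.064 in the 6 high-rRNA libraries. The default method took the place of the newer one after results of the newer one on these counts had been seen.

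Under FOXO knockdown the 19 genes called for mutant against control mtDNA became 158 in the 6 high-rRNA libraries, 156 with DESeq2, 35 with the newer method, 172 with no filter, 75 in only the libraries compared, 31 without rRNA genes, 4 on total counts, 5 at a threshold of 0.01 and 0 without the class term. List genes called, 0 with the model of the report, were 2 in the 6 high-rRNA libraries and 1 with no filter, and Gclc turned to 0.0047 with no filter, and Gclm to -0.043 on total counts. For the interaction the 59 genes became 188 in the 6 high-rRNA libraries, 281 with DESeq2, 103 with the newer method, 271 with no filter, 96 without rRNA genes, 5 at a threshold of 0.01, and 0 without the class term or on total counts. The 1 list gene became 2 with DESeq2 and with no filter, and 0 without the class term and on total counts. On total counts the interaction turned to 0.027 for cnc, 0.065 for Sod2 and 0.070 for Gclc.

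For FOXO knockdown against none with mutant mtDNA, 1 of the 8 genes, cnc, was called in the 6 high-rRNA libraries, with DESeq2 and in only the libraries compared. All genes called, 220 with the model of the report, were 389 in the 6 high-rRNA libraries, 420 with DESeq2, 446 with no filter, 1155 in only the libraries compared, 101 on total counts, 81 at a threshold of 0.01 and 0 without the class term. List genes called, 0 with the model of the report, were 2 in the 6 high-rRNA libraries and with DESeq2, 4 with no filter and 5 in only the libraries compared. Without the class term Keap1 turned to 0.15, Sod2 to -0.70 and Gclc to 0.19. With control mtDNA the 66 genes called became 236 in the 6 high-rRNA libraries, 200 with DESeq2, 278 with no filter, 187 in only the libraries compared, 33 on total counts, 36 at a threshold of 0.01 and 0 without the class term. List genes called, 0 with the model of the report, were 1 in the 6 high-rRNA libraries, with DESeq2 and with no filter. Without the class term Cat turned to -0.073, Sod1 to -0.69, Sod2 to -0.67, Gclc to 0.24 and Gclm to -0.58. Cat was -0.034 in the 6 high-rRNA libraries, -0.0415 in only the libraries compared and -0.12 on total counts, where Sod2 was -0.0046 and Gclm -0.24, and Gclm was -0.0012 with no filter.

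Replicate numbers are shared by the 4 groups but no label ties them to a batch. Deviations of same-numbered libraries correlated at 0.669 between control and mutant and at -0.0384 to 0.00367 in the other 5 pairs of groups. In both control and mutant, replicate 1 was the low-rRNA and replicate 2 the high-rRNA library. A pairing by number therefore cannot be told apart from the library class in these groups. Across the 4 groups the numbers were not taken to pair the samples. A replicate block added to the class term left the Cat call in place (0.69, adjusted p = 0.0414) and gave 30 genes called for mutant against control mtDNA under knockdown, 129 for knockdown against none with mutant mtDNA, and -0.12 for Gclm in knockdown against none with control mtDNA. With the replicate block in place of the class term, 0 genes, 0 of the 8 and 0 list genes were called in all 5 comparisons. Gclc was then 0.0002 for mutant against control mtDNA under knockdown. For knockdown against none with control mtDNA, this block gave -0.066 for Cat, -0.50 for Sod1, -0.53 for Sod2, 0.27 for Gclc and -0.49 for Gclm. With mutant mtDNA it gave 0.16 for Keap1, -0.57 for Sod2 and 0.23 for Gclc.

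Leaving out each library in turn moved the counts as follows. For mutant against control mtDNA, 0 to 2 of the 8 genes, 250 to 470 of all genes and 0 to 5 list genes were called. Under knockdown it was 0 to 1, 8 to 680 and 0 to 8, for the interaction 0 to 1, 45 to 510 and 0 to 5, for knockdown against none with mutant mtDNA 0 to 1, 119 to 430 and 0 to 3, and with control mtDNA 0 to 1, 65 to 623 and 0 to 3. Log2 differences that changed sign spanned, for mutant against control mtDNA, -0.049 to 0.16 for Keap1. Under knockdown they spanned -0.19 to 0.0078 for Sod1, -0.092 to 0.68 for Sod2, -0.054 to 0.055 for Gclc and -0.10 to 0.25 for Gclm. For the interaction they spanned -0.38 to 0.39 for Sod2, -0.047 to 0.76 for Sod3 and -0.097 to 0.012 for Gclc. For knockdown against none they spanned -0.15 to 0.48 for Sod2 with mutant mtDNA, and with control mtDNA -0.046 to 0.57 for Cat, -0.20 to 0.57 for Sod2 and -0.088 to 0.097 for Gclm. Where a group kept 1 library, that library is assumed to vary like the other groups.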
